A study of Mus musculus with 9 samples.

Results

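The genes described here encode the machinery of mitosis and cytokinesis: G2/M cyclins and their kinase, mitotic kinases, checkpoint, kinetochore and spindle proteins, condensin subunits, and the proteins that cut a dividing cell apart. They were taken from a list of 40 symbols, and 39 of them were measured, out of 19937 genes with a probe set annotated to a single symbol. Where a gene had several such probe sets, as Top2a did, the brightest over all arrays stood for it. Ccnb1 (cyclin B1) had no probe set with a single symbol and was not analysed here. RNA came from whole oviduct of CD1 females that had received no hormones, on 9 Affymetrix arrays. The groups were sexually immature females of day 21 (titled controls by the submitters), sexually mature females in estrus and sexually mature females in diestrus, with 3 arrays each. The labels used here give no age for the mature females. Every array carried a pool of tissue from 5 animals, so the p-values below measure the spread between pools.

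Entry into mitosis is driven by the kinase Cdk1 bound to cyclins A and B, and the transcription factor FoxM1 raises many of the genes needed at that point. Polo-like and Aurora kinases then build the spindle and attach chromosomes at kinetochores, checkpoint proteins hold the cell until all are attached, and the anaphase promoting complex with Cdc20 releases the sister chromatids. The central spindle and an actomyosin ring finally divide the cell. These transcripts peak late in the cell cycle and are low in resting cells, so their level in a tissue follows the share of cells in division. The oviduct epithelium holds ciliated and secretory cells over stroma and smooth muscle, and it grows and differentiates before puberty. Cells that build many cilia also use part of the mitotic machinery without dividing. In whole tissue, fewer dividing cells and less of each transcript per dividing cell cannot be told apart.

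Promoters of many genes of this class carry a cell cycle genes homology region (CHR) and CCAAT boxes, through which the MuvB complexes and NF-Y act. The RefSeq promoter table (GRCm38.p6, 250 bases before to 50 after the start of transcription) held 36 promoters of 34 of the 40 listed genes. Ect2 and Prc1 each entered with overlapping promoters, so the same CHR and CCAAT matches were counted more than once for them. The letters TTTGAA of the CHR occurred on either strand in 27 of 36 (75.0%), against 17.9% of 32851 promoters in the table. CCAAT occurred in 27 of 36 (75.0%, against 37.4%), at least 2 copies of it in 18 of 36 (against 11.7%), and CHR and CCAAT together in 24 (66.7%, against 6.95%). Any of the E2F octamers TTTGGCGC, TTTCGCGC, TTTCCCGC and TTTGCCGC occurred in 2 (5.56%, against 2.26%). No match of the CHR overlapped a match of another motif in these promoters. These are matches of letters, not tested sites.

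The promoters of 5 genes that passed the test in a comparison below are shown, since they hold both motifs. Each runs from 100 bases before the start of transcription to 30 after it, 5′ to 3′ on the strand of the gene, with CHR (TTTGAA or its complement TTCAAA) and CCAAT (or ATTGG) in capitals. Ccnb2 lies at chr9:70421525-70421654 (minus strand), Spc25 at chr2:69206184-69206313 (minus), Kif11 at chr19:37376282-37376411 (plus), Racgap1 at chr15:99651627-99651756 (minus) and Ect2 at chr3:27153825-27153954 (minus), all in GRCm38.p6.
Ccnb2: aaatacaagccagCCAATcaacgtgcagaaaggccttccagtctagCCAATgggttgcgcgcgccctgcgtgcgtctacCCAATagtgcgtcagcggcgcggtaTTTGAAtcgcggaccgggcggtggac
Spc25: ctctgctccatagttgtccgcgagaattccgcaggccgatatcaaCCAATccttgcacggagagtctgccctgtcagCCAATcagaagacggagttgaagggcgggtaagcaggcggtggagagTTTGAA
Kif11: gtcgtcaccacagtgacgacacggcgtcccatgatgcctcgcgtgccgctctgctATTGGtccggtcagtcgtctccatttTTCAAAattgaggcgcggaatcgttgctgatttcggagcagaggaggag
Racgap1: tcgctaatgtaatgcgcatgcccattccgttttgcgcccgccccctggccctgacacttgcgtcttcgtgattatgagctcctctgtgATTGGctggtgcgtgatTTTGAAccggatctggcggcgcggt
Ect2: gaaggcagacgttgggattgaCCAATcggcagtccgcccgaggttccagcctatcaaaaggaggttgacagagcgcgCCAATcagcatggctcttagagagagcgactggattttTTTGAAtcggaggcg
The windows of Ccnb2 hold 3 CCAAT matches, those of Spc25 and Ect2 hold 2 and those of Kif11 and Racgap1 hold 1, each with 1 CHR match. Of the other genes that passed, Nuf2 and Ncaph had neither motif in the longer promoter window. Ccna2 was not matched.

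Values are log2 intensities after robust multi-array averaging (RMA), and a difference of 1 on this scale is a doubling of intensity. They compare a gene between arrays, not different genes with each other. The arrays had medians between 8.85 and 8.9 and correlated at 0.992 to 0.996 within groups and 0.990 to 0.995 between groups. Of the 39 genes, 23 lay below the array median on every mature array and 16 on all 9 arrays. Above it on every immature array lay 19, some of which were among those 23. No measure of background was used, so values below the median may lie near it. The 4 genes Ttk, Cenpe, Kif4 and Hmmr lay below the lower quartile (7.61 to 7.76) on every array.

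All 39 genes had lower means in estrus and in diestrus than in immature oviduct, against 45.1% and 46.3% of all 28214 probe sets. The same held for the mean of both stages, against 45.7%. The median log2 difference was -0.63 in estrus and -0.53 in diestrus, where the median over all probe sets was 0.01 in both. In terms of intensity, estrus stood at 43.1% (Ccna2) to 91.8% (Mad2l1) of the immature level, and diestrus at 48.7% (Ccna2) to 92.5% (Birc5). These 2 comparisons share the 3 immature arrays and are not independent of each other.

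**Figure D1:**
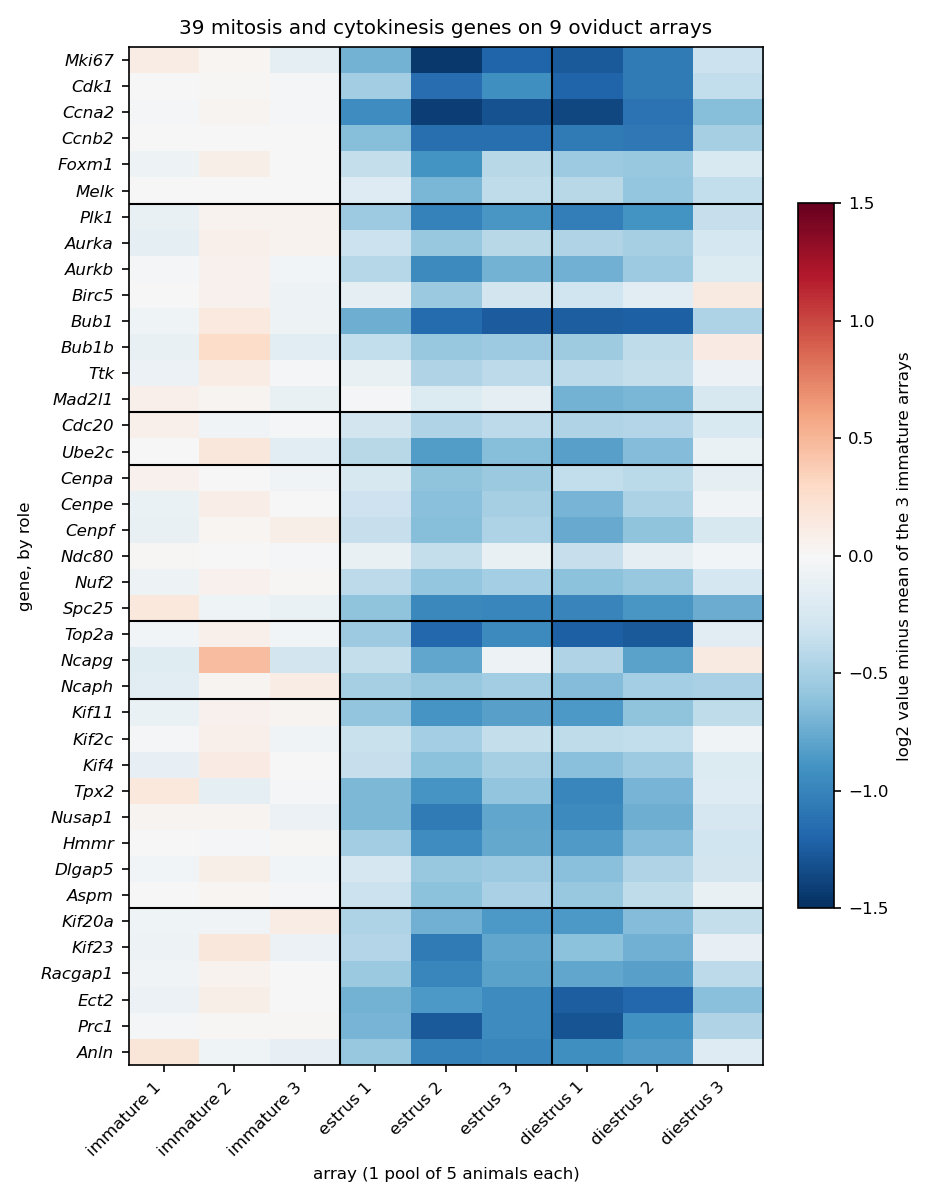
Log2 value of each of the 39 genes (rows, by role, from mitotic entry at the top to cytokinesis at the bottom, black lines between roles) minus its mean over the 3 immature arrays, for each of the 9 arrays (columns). The estrus arrays are below the immature mean in all 39 genes, and diestrus 3 is the palest of the mature columns.

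Few single genes passed the threshold, an adjusted p below 0.05 in limma with the Benjamini-Hochberg method applied to every probe set. In estrus 1 of 39 fell, Spc25, where 0.0532% of all probe sets were called lower and 0.0851% in either direction. In diestrus 6 of 39 fell (Ccna2, Ccnb2, Spc25, Ncaph, Racgap1 and Ect2), against 0.705% of probe sets called lower and 1.00% in either direction. With both mature stages pooled against immature, 8 of 39 fell, these 6 with Nuf2 and Kif11, against 0.312% called lower and 0.432% in either direction. None rose in any of these comparisons. At an unadjusted p under 0.05 the counts were 36 (against 4.27% of all probe sets), 35 (against 8.95%) and 37 (against 6.81%). The arrays did not overlap, with every mature array below every immature one, in 37 genes for estrus (6.62% of all probe sets), in 33 for diestrus (10.9%) and in 32 for both stages together (3.18%).

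The counts called depended on single pools. For both mature stages against immature, 8 genes were called with all arrays. Leaving out immature 1, 2 or 3 gave 2, 0 or 1 calls. Leaving out estrus 1, 2 or 3 gave 9, 2 or 2, and leaving out diestrus 1, 2 or 3 gave 5, 4 or 31. In the same order, diestrus against immature gave 1, 0 or 1 calls, 5, 6 or 3, and 0, 0 or 29, where all arrays gave 6. Estrus against immature gave 0 calls without any 1 immature array, 1, 0 or 0 without an estrus array, and 0, 0 or 19 without a diestrus array. Leaving out a diestrus array cannot move the estrus differences, since the groups share only the model's estimate of spread. For Top2a the estrus difference stayed at -0.9 without diestrus 3, with an SE of 0.14 in place of 0.27. For Spc25 the SE was 0.11 in both fits. Calls among all probe sets moved as well: the 19 genes came with 0.298% of all probe sets called lower. Over the 9 settings the calls in either direction numbered 1 to 95 for estrus, 41 to 533 for diestrus and 14 to 300 for both stages, where all arrays gave 24, 282 and 122. The median difference moved less: over these 9 settings it lay between -0.66 and -0.51 for both stages together. Spc25 was called in 8 of the 9 settings and Ncaph in 7 for both stages together. Array weights gave 35, 34 and 35 calls for estrus, diestrus and both stages together, among 1023, 1288 and 578 of all probe sets called in either direction. That fit gave estrus 3 a weight of 8.16 and estrus 1 and 2 weights of 0.413 and 0.325, so its estrus mean rests mostly on 1 pool.

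**Figure D2:**
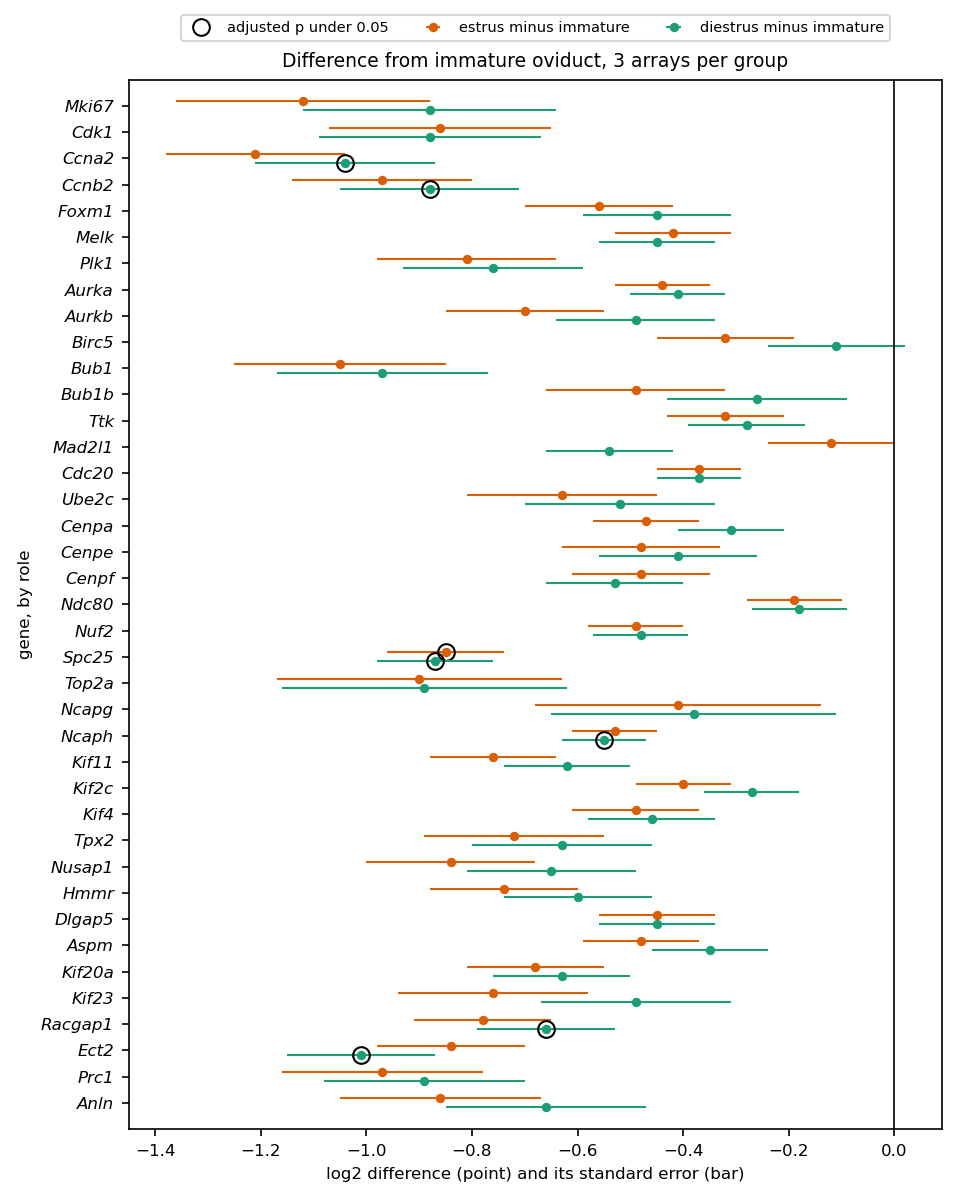
Log2 difference from immature oviduct (x axis) with its limma standard error for each of the 39 genes (y axis, by role), in estrus (orange) and diestrus (green); black rings mark an adjusted p under 0.05. All points lie left of 0, from -1.21 (Ccna2 in estrus) to -0.11 (Birc5 in diestrus).

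The first group comprised the proliferation mark Mki67, the mitotic kinase gene Cdk1, the cyclins and their regulators. All 6 measured members had lower means. In estrus the 3 arrays lay below the 3 immature arrays in all 6 (6.62% of all probe sets). The same held in diestrus (10.9%). The median differences were -0.92 in estrus and -0.88 in diestrus. Ccna2, which encodes the cyclin of S phase and mitotic entry, stood at 10.21, 10.27 and 10.20 on the immature arrays, at 9.30, 8.82 and 8.92 in estrus, and at 8.86, 9.11 and 9.59 in diestrus. The immature arrays lay close together, well above every mature array. It fell by 1.04 ± 0.17 in diestrus (SE; adjusted p = 0.0318), while estrus minus immature was -1.21 ± 0.17 (adjusted p = 0.0524). Over both stages the fall of 1.13 ± 0.15, to 45.8% of the immature intensity, was the largest of the 39 (adjusted p = 0.0193).

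Ccnb2, the gene of cyclin B2, read 10.40 on all 3 immature arrays, 9.76, 9.27 and 9.26 in estrus, and 9.34, 9.32 and 9.90 in diestrus. It fell by 0.88 ± 0.17 in diestrus (adjusted p = 0.0496) and by 0.92 ± 0.15 over both stages (adjusted p = 0.0339). Estrus 1 and diestrus 3 were the highest mature arrays for this gene, as for most that follow.

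Cdk1 itself stood at 10.78, 10.79 and 10.75 in immature oviduct, 10.24, 9.63 and 9.85 in estrus, and 9.57, 9.71 and 10.40 in diestrus. Its difference over both stages, -0.87 ± 0.18, did not pass (adjusted p = 0.0978), though no mature array reached an immature one. Mki67, whose protein coats mitotic chromosomes, read 10.06, 9.98 and 9.81 in immature oviduct, 9.24, 8.51 and 8.74 in estrus, and 8.69, 8.89 and 9.63 in diestrus. Diestrus 3 lay just below immature 3, and the difference over both stages was -1.0 ± 0.21 (adjusted p = 0.0988). Foxm1, the transcription factor of this program, read 8.46, 8.63 and 8.54, then 8.19, 7.65 and 8.12, then 8.0, 7.97 and 8.31, in the same order of groups. All its values lay below the array medians, and its difference was -0.50 ± 0.12 (adjusted p = 0.158). Melk, which encodes a mitotic protein kinase, had the smallest difference of this group at -0.44 ± 0.10 (adjusted p = 0.117): it read 8.61 on each immature array, 8.42, 7.93 and 8.22 in estrus, and 8.2, 8.02 and 8.24 in diestrus.

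None of the 8 mitotic kinase and checkpoint genes passed in any comparison, although all 8 means were lower in both stages. At an unadjusted p under 0.05, 7 were lower in estrus (against 4.27% of all probe sets) and 6 in diestrus (against 8.95%). Bub1, a checkpoint kinase at kinetochores, had the largest difference of these, -1.01 ± 0.18 over both stages (adjusted p = 0.0505). It read 8.56, 8.77 and 8.55 in immature oviduct, 7.89, 7.47 and 7.38 in estrus, and 7.39, 7.40 and 8.16 in diestrus. The groups lay apart, with immature 3 and diestrus 3 closest to each other. The polo kinase gene Plk1 differed by -0.78 ± 0.15 (adjusted p = 0.0694) and Aurka, the Aurora kinase of spindle poles, by -0.42 ± 0.08 (adjusted p = 0.0664).

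Aurkb and Birc5 encode the kinase and the survivin subunit of the chromosomal passenger complex. Aurkb read 9.86, 9.96 and 9.84 in immature oviduct, 9.46, 8.94 and 9.18 in estrus, and 9.16, 9.35 and 9.68 in diestrus, a difference of -0.59 ± 0.13 over both stages (adjusted p = 0.111). Birc5 read 8.41, 8.47 and 8.33, then 8.27, 7.84 and 8.13, then 8.10, 8.23 and 8.54. Its highest value was on diestrus 3, above all immature arrays, and its difference over both stages was the smallest of this group at -0.22 ± 0.11 (adjusted p = 0.555). The checkpoint genes Bub1b and Ttk differed by -0.38 ± 0.15 and -0.30 ± 0.09 (adjusted p = 0.422 and 0.293).

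Cdc20, which activates the anaphase promoting complex, and Ube2c, the ubiquitin-conjugating enzyme that works with it, did not pass either. Cdc20 read 9.19, 9.06 and 9.09 in immature oviduct, 8.84, 8.66 and 8.72 in estrus, and 8.66, 8.68 and 8.88 in diestrus, so that the groups lay apart. The difference was -0.37 ± 0.07 over both stages (adjusted p = 0.0524). Ube2c read 9.96, 10.12 and 9.80, then 9.54, 9.13 and 9.32, then 9.15, 9.31 and 9.86. Diestrus 3 overlapped the immature arrays for Ube2c, and its difference was -0.57 ± 0.15 (adjusted p = 0.201).

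Among 6 centromere and kinetochore genes, Spc25 and Nuf2 fell over both stages, against 0.312% of all probe sets called lower. Both encode subunits of the Ndc80 complex, the coupler between kinetochore and microtubule. Spc25 read 8.96, 8.73 and 8.70 in immature oviduct, 8.19, 7.83 and 7.82 in estrus, and 7.80, 7.92 and 8.05 in diestrus. Here diestrus 3 stood only 0.18 above the mean of the other diestrus arrays. Spc25 fell by 0.85 ± 0.11 in estrus (adjusted p = 0.0369), by 0.87 ± 0.11 in diestrus (adjusted p = 0.013) and by 0.86 ± 0.10 over both (adjusted p = 0.0108).

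Nuf2 read 8.11, 8.24 and 8.19, then 7.79, 7.60 and 7.68, then 7.57, 7.61 and 7.92, and fell by 0.49 ± 0.08 over both stages (adjusted p = 0.0425). Without any single array other than diestrus 3 it was no longer called, with adjusted p up to 0.209. Ndc80, which gives the complex its name, had the smallest difference of all 39 over both stages: it read 7.71, 7.69 and 7.67, then 7.57, 7.34 and 7.58, then 7.34, 7.54 and 7.64, a difference of -0.19 ± 0.08 (adjusted p = 0.459). The mature values of Spc25 and all values of Nuf2 and Ndc80 lay below the array medians, and those of Ndc80 in mature oviduct below the lower quartile. Cenpa, the histone variant that marks centromeres, read 9.10, 9.02 and 8.98 in immature oviduct, 8.79, 8.43 and 8.48 in estrus, and 8.67, 8.62 and 8.89 in diestrus, with no overlap and a difference of -0.39 ± 0.09 (adjusted p = 0.134). Cenpe, a kinetochore motor, and Cenpf differed by -0.44 ± 0.13 and -0.51 ± 0.11 (adjusted p = 0.241 and 0.114).

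The 3 genes of chromosome structure differed in how steady they were. Ncaph, the kleisin subunit of condensin I, read 9.29, 9.49 and 9.56 in immature oviduct, 8.95, 8.88 and 8.93 in estrus, and 8.79, 8.94 and 8.96 in diestrus. Its 6 mature values spread less than those of any other of the 39 genes. It fell by 0.55 ± 0.08 in diestrus (adjusted p = 0.0163) and by 0.54 ± 0.07 over both stages (adjusted p = 0.0146), while estrus minus immature was -0.53 ± 0.08 (adjusted p = 0.056). Top2a, the topoisomerase that untangles sister chromatids, read 9.75, 9.86 and 9.75, then 9.24, 8.61 and 8.83, then 8.56, 8.54 and 9.62. Its mean difference of -0.89 ± 0.23 was larger than that of Ncaph, but the diestrus arrays spread with an SD of 0.62, and it did not pass (adjusted p = 0.183). Ncapg, another subunit of condensin I, read 7.81, 8.46 and 7.72, then 7.63, 7.21 and 7.91, then 7.54, 7.18 and 8.12, with all groups overlapping. Its difference was -0.39 ± 0.23 (adjusted p = 0.612).

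All 8 genes of spindle motors and spindle assembly had lower means in both stages, and all 8 had an unadjusted p under 0.05 in each. Of all probe sets, 4.27% in estrus and 8.95% in diestrus were lower at that threshold. Kif11, the motor that pushes spindle poles apart, read 9.43, 9.59 and 9.57 in immature oviduct, 8.94, 8.64 and 8.71 in estrus, and 8.66, 8.93 and 9.15 in diestrus. It fell by 0.69 ± 0.10 over both stages, to 62.0% of the immature intensity (adjusted p = 0.0272). Nusap1, which bundles spindle microtubules, had the largest mean difference, -0.74 ± 0.14, without passing (adjusted p = 0.0677). It read 8.88, 8.87 and 8.75, then 8.17, 7.77 and 8.05, then 7.88, 8.10 and 8.58. Kif2c, a microtubule depolymerase of centromeres, had the smallest, -0.34 ± 0.08 (adjusted p = 0.155), with 8.50, 8.60 and 8.46, then 8.18, 8.01 and 8.16, then 8.13, 8.15 and 8.46. On diestrus 3 Kif2c equalled immature 3 to the second decimal. Tpx2, which activates Aurora A on the spindle, differed by -0.67 ± 0.15 and Hmmr by -0.67 ± 0.12. Aspm, Dlgap5 and Kif4 differed by -0.41 to -0.47, with adjusted p between 0.0524 and 0.139 for these 5 genes.

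The 6 genes of the central spindle and cytokinesis were all lower, with no overlap in estrus (6.62% of all probe sets) or diestrus (10.9%). Of them, 2 fell in diestrus (0.705% of all probe sets were called lower) and over both stages (0.312%). Racgap1 and Ect2 work together: the first is part of centralspindlin and recruits the second, the exchange factor that turns on RhoA at the cleavage furrow. Racgap1 read 9.07, 9.16 and 9.12 in immature oviduct, 8.56, 8.14 and 8.32 in estrus, and 8.34, 8.30 and 8.73 in diestrus. Ect2 read 9.83, 10.00 and 9.91, then 9.21, 9.06 and 8.97, then 8.68, 8.74 and 9.28. Racgap1 fell by 0.66 ± 0.13 in diestrus (adjusted p = 0.0496) and by 0.72 ± 0.11 over both stages (adjusted p = 0.0297). Ect2 fell by 1.01 ± 0.14 in diestrus (adjusted p = 0.0164) and by 0.93 ± 0.12 over both (adjusted p = 0.0193).

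Prc1, which bundles the antiparallel microtubules of the midzone, differed over both stages by as much as Ect2, -0.93 ± 0.17, and did not pass (adjusted p = 0.0575). It read 9.09, 9.14 and 9.14, then 8.42, 7.87 and 8.18, then 7.83, 8.22 and 8.67. Kif23, the motor of centralspindlin, had the smallest at -0.62 ± 0.16 (adjusted p = 0.172), with 8.84, 9.09 and 8.84, then 8.49, 7.86 and 8.15, then 8.31, 8.2 and 8.80. Its diestrus 3 value lay just under immature 1 and 3. Kif20a and the furrow scaffold gene Anln differed by -0.65 ± 0.12 and -0.76 ± 0.16 (adjusted p = 0.0524 and 0.115).

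**Figure D3:**
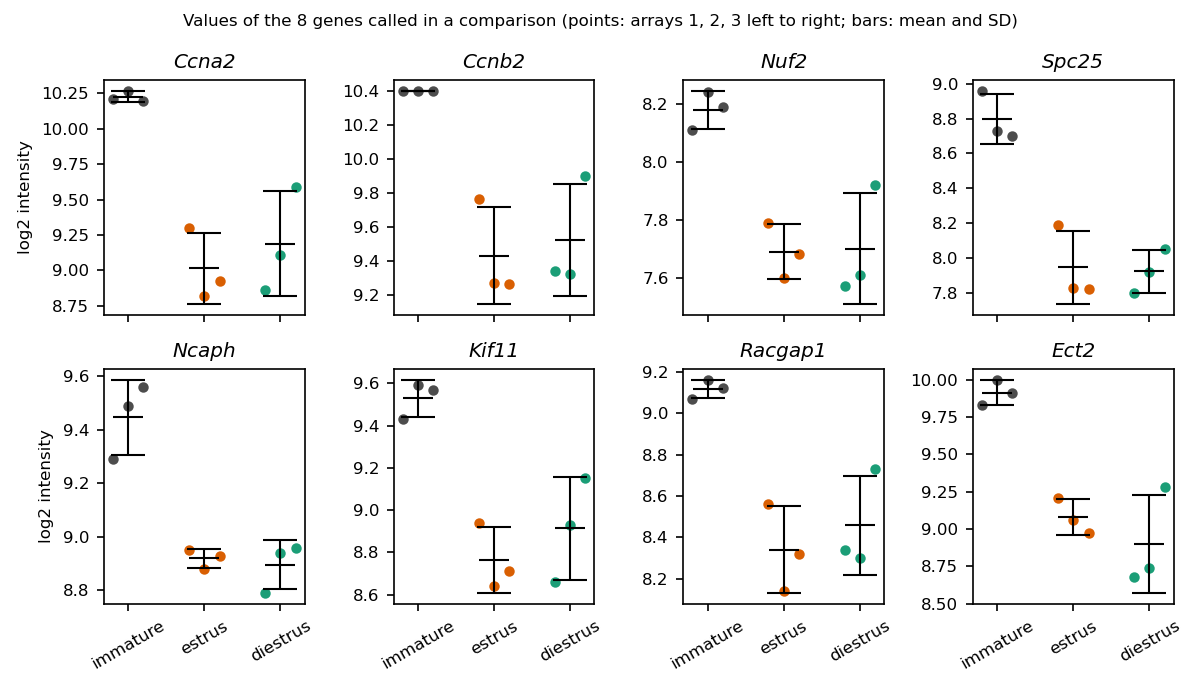
Log2 intensity on each array (points, arrays 1 to 3 from left to right in each group) with mean and SD (bars) for the 8 genes with an adjusted p under 0.05 in at least 1 comparison; the y axes differ and do not start at 0. Each immature array lies above every mature array in all 8 genes, and estrus 1 and diestrus 3 are the highest of their groups.

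Diestrus and estrus were then compared with each other. None of the 39 genes was called for diestrus against estrus in limma, where 0.159% of all probe sets were called in either direction and 0.0922% lower. The median difference was 0.08 (-0.01 over all probe sets), with 31 means higher and 8 lower in diestrus (53.1% of all probe sets were lower). The 95% confidence intervals of the 39 differences reached from -0.69 at the lowest to 0.78 at the highest. At an unadjusted p under 0.05 there was 1 gene (5.48% of all probe sets were lower), Mad2l1, which encodes a spindle checkpoint protein and was picked after its values were seen. It read 10.87, 10.83 and 10.68 in immature oviduct, 10.76, 10.58 and 10.65 in estrus, and 10.09, 10.10 and 10.56 in diestrus. The estrus arrays overlapped the immature arrays, and the diestrus arrays lay below both, as in 6.85% of all probe sets for diestrus below estrus. Diestrus minus estrus was -0.42 ± 0.12 (95% confidence interval -0.69 to -0.15; adjusted p = 0.254). Without diestrus 3 it was -0.57 with an adjusted p of 0.0427, and the median difference of the 39 genes was -0.07. For Ect2, diestrus minus estrus was -0.17 ± 0.14 (adjusted p = 0.865).

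The 39 genes moved together between pools of the same stage. Diestrus 3 was the highest of the 3 diestrus arrays in 39 of 39 genes, and of all probe sets in 31.4%. It exceeded the mean of the other diestrus arrays by 0.09 (Ncaph) to 1.07 (Top2a), with a median of 0.43, where the median over all probe sets was -0.01. In estrus, estrus 1 was the highest in 36 genes (43.0% of all probe sets) and estrus 2 the lowest in 34 (46.1%). The median SD of the 39 genes was 0.085 over the immature arrays, 0.202 in estrus and 0.264 in diestrus, beside 0.075, 0.097 and 0.071 over all probe sets. The median deviation from the immature mean was -0.43, -0.83 and -0.59 on estrus 1, 2 and 3, and -0.72, -0.65 and -0.24 on diestrus 1, 2 and 3. The 8 genes called had a median excess on diestrus 3 of 0.38, against 0.46 for the other 31. A smaller excess of called genes is partly built in, since the spread used by the test includes diestrus 3.

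Markers of other tissue components also stood apart on diestrus 3. The summed intensity of 5 smooth muscle markers (Acta2, Myh11, Des, Cnn1 and Tagln, all measured) was 15.00 on the log2 scale there, against 14.22 and 14.30 on the other diestrus arrays, 14.29 to 14.56 in immature oviduct and 14.31 to 14.50 in estrus. The sums of 5 fibroblast markers (14.86, against 14.22 to 14.55 on the other 8), 4 endothelial markers (11.46, against 10.85 to 11.24) and 4 of 5 leukocyte markers (12.28, against 11.50 to 12.00) were also highest there. Pdgfra, of fibroblasts, read 10.78 on diestrus 3 and 9.48 to 9.72 elsewhere. Epithelial markers went in no single direction on diestrus 3. Of 5 ciliated cell markers, Foxj1 (10.98) and Tppp3 (12.72) had their lowest value of the 9 arrays there, while Dnah5 (12.22), Rsph1 (10.59) and Ccdc39 (11.13) did not. Of 3 secretory cell markers, Pax8 (11.76) was at its lowest, Krt7 (11.05) at its highest and Msln (10.50) at neither. The part of these differences in the mitotic values was not tested. Without diestrus 3, 29 genes were lower in diestrus than in immature oviduct (1.48% of all probe sets called lower) and 31 in both stages together (0.879%), while Birc5, Bub1b, Foxm1, Melk, Cenpa, Ncapg, Ndc80 and Ttk did not pass in either. Diestrus 3 was the highest diestrus array for all 39 genes, so leaving it out lowered every diestrus mean by construction.

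Markers of ovary, whose granulosa cells divide, also differed between pools. The summed log2 intensity of 10 of 12 ovarian markers was 13.28 on immature 2 and 11.50 and 11.62 on the other immature arrays, 11.49 to 11.72 in estrus, and 13.27 on diestrus 2 against 11.52 and 12.18 on the other diestrus arrays. Inha, of granulosa cells, read 12.42 on immature 2 and 9.88 and 9.34 on immature 1 and 3. Foxl2 moved little, with 9.15 on immature 2 and 9.06 and 9.00 on the others. Akr1c18 read 7.14 on immature 2 and was highest on immature 3 (8.15). On diestrus 2 Akr1c18 read 11.53 (7.49 and 8.05 on diestrus 1 and 3) and Cyp11a1 10.27 (7.82 and 9.21). Amh (8.11) and Fshr (7.85) did not stand out there. The mean over the 39 mitotic genes was 9.02 on immature 2 and 8.93 and 8.92 on immature 1 and 3, and diestrus 2 at 8.28 lay between the other diestrus arrays at 8.18 and 8.70. With immature 2 and diestrus 2 both left out, an alternative added after seeing the data, the median difference for both stages together was -0.48 and 0 of the 39 genes were called in limma, with 9 calls among all probe sets. Ncapg then had a difference of 0.07 for diestrus minus immature, in place of -0.38. Summed ciliated (14.05 to 14.45) and secretory cell markers (12.78 to 13.04, 3 of 4 measured) overlapped between the 3 groups. The 3 of 4 fat cell markers measured had sums of 10.39 to 11.34 in immature and 10.11 to 10.41 in mature oviduct. The 3 of 5 red blood cell precursor markers measured had sums of 9.65 to 9.82 on all arrays. The part of fat in the mitotic values was not tested.

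Other genes of mitosis, from a list of 66 of which 63 were measured, also had lower means for the most part, with a median nearer to 0. Over both mature stages 61 of 63 had lower means, the median difference was -0.28 and 9 fell (0.312% of all probe sets were called lower). These were the kinetochore genes Knl1, Ska3 and Cenpk, the cohesin protector Sgo2a, the spindle genes Kif18a, Spag5 and Ckap2l, Depdc1a, and Cks2, which binds Cdk1. Knl1, the scaffold on which Bub1 and the Ndc80 complex sit, fell by 0.87 ± 0.12 (adjusted p = 0.024) and Sgo2a by 0.84 ± 0.13 (adjusted p = 0.0297). Cks2 fell by 0.76 ± 0.10 (adjusted p = 0.0187). Cks2 had 3 probe sets with a single symbol and Depdc1a had 2, and only the brightest of each is given here. In diestrus 8 fell (0.705% of all probe sets were called lower), 7 of these 9 and Cenpp, without Kif18a and Ska3. In estrus none was called in limma, while 40 had an unadjusted p under 0.05 and a lower mean (4.27% of all probe sets).

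Of 19 other condensin and cohesin genes, 17 had lower means over both stages with a median of -0.10 and none called in limma. At an unadjusted p under 0.05, 6 were lower (6.81% of all probe sets). Smc2 and Esco2 had the largest differences, -0.53 ± 0.13 and -0.48 ± 0.14 (adjusted p = 0.153 and 0.243). Smc4, a condensin ATPase, fell by 0.38 ± 0.07 in diestrus (adjusted p = 0.0496), where 0.705% of all probe sets were called lower. The 17 genes of the anaphase promoting complex and its partners had a median of -0.10 over both stages with none called in limma in any comparison. Over both stages 3 were lower at an unadjusted p under 0.05 (6.81% of all probe sets). Of all 17 genes, Ube2s differed by -0.24 ± 0.08 and the inhibitor gene Fbxo5, not one of those 3, by -0.22 ± 0.11 (adjusted p = 0.357 and 0.554).

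Among 22 genes of the DREAM and MYB-MuvB complexes, E2F factors and NF-Y, which control transcription of mitotic genes, the median over both stages was -0.09. The atypical repressors E2f7 and E2f8 fell by 0.50 ± 0.07 and 0.70 ± 0.11 and Mybl1 by 0.48 ± 0.08 (adjusted p = 0.0242, 0.0369 and 0.0366). In diestrus these 3 and Rbl1, the p107 pocket protein gene, fell, Rbl1 by 0.62 ± 0.10 (adjusted p = 0.027). Of all probe sets, 0.312% were called lower over both stages and 0.705% in diestrus. Rbl1 read 10.22, 10.21 and 10.19 in immature oviduct, 10.10, 10.16 and 10.33 in estrus, and 9.41, 9.55 and 9.81 in diestrus, so that only the diestrus arrays lay apart. Diestrus minus estrus was -0.61 ± 0.10 for Rbl1 (adjusted p = 0.058).

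Of 14 measured of 16 CDK inhibitors and genes of cycle exit, which restrain the cycle, 10 had higher means over both stages. Of all probe sets, 45.7% had lower means. The median was 0.02, with none called in limma. At an unadjusted p under 0.05, 2 were higher and 2 lower, where 6.81% of all probe sets were lower. In either direction 2823 of 28214 probe sets passed. In diestrus the antiproliferative gene Btg2 rose by 0.42 ± 0.07 and the stress gene Gadd45a fell by 0.62 ± 0.09 (adjusted p = 0.0299 and 0.0222). Of all probe sets, 1.00% were called there in either direction and 0.705% lower. Gadd45a also fell from estrus to diestrus, by 0.73 ± 0.09 (adjusted p = 0.0229), where 0.0922% of all probe sets were called lower. All 8 G1 cyclins and kinases had lower means over both stages, with a median of -0.15, none called in limma and 4 lower at an unadjusted p under 0.05 (6.81% of all probe sets). They ranged from Ccnd1, the abundant cyclin D1, at -0.03 ± 0.06 to Ccne2 at -0.63 ± 0.13 (adjusted p = 0.881 and 0.109).

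For S phase, all 25 genes had lower means over both stages with a median of -0.31 and none called in limma. Of them, 19 were lower at an unadjusted p under 0.05 (6.81% of all probe sets). Rfc4, a clamp loader subunit, fell by 0.54 ± 0.09 in diestrus (adjusted p = 0.0342), where 0.705% of all probe sets were called lower. Of 14 genes of centriole amplification in multiciliated cells, 7 fell over both stages (median -0.40): Ccna1, Stil, Cdc20b, Plk4, Deup1, Ccno and Mcidas. Of all probe sets, 0.312% were called lower there. The list was not limited to genes that act only in multiciliated cells, and Plk4 and Stil are not such genes. Ccna1 fell by 1.06 ± 0.07 and Stil by 0.96 ± 0.08 (adjusted p = 0.00131 and 0.0031). In diestrus these 7 and Sass6 fell (0.705% of all probe sets were called lower), and in estrus Ccna1 and Stil (0.0532%). Against immature, the median of the 14 was -0.61 in diestrus, lower than the -0.53 of the 39 mitotic genes. In estrus it was -0.26, against -0.63 for the 39. The median of the 14 for diestrus minus estrus was -0.28, with 8 lower at an unadjusted p under 0.05 (5.48% of all probe sets) and none called in limma. For the 39 mitotic genes these values were 0.08 and 1. The difference between the lists was not tested.

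**Figure D4:**
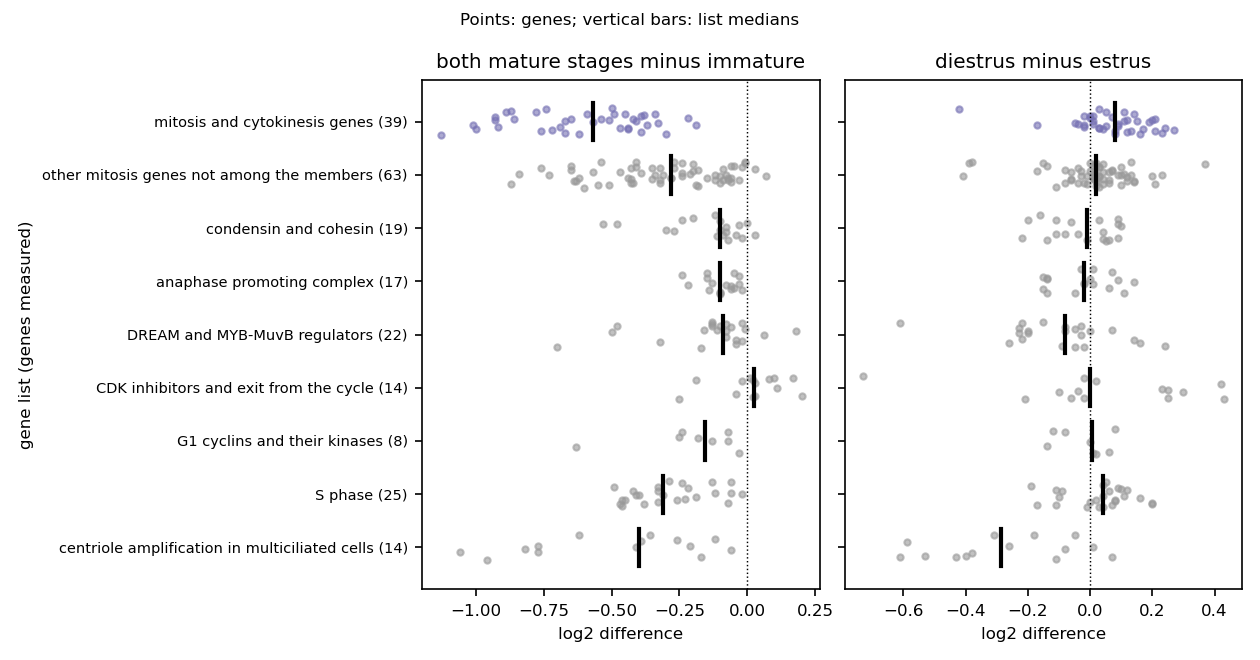
Log2 difference of each gene (points) and list median (vertical bars) for the 39 mitosis and cytokinesis genes (purple) and 8 lists of related genes (grey), for both mature stages minus immature (left) and diestrus minus estrus (right). The mitosis and cytokinesis genes have the lowest median on the left, -0.57, and one near 0 on the right, 0.08, where centriole amplification genes have -0.28. For diestrus alone minus immature, not drawn, centriole amplification genes have the lower median, -0.61 against -0.53.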

How the data were processed

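The deposited values are log2 intensities that the authors made by RMA in Affymetrix Expression Console, per the submitters' processing notes (no version is stated there). RMA subtracts background, gives all arrays one distribution and combines the probes of a set. This would hide a change shared by most genes. The number of arrays limits the precision. Symbols came from the platform's annotation: of 28214 probe sets, 21640 had 1 symbol, 1321 several and 5253 none.

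One limma 3.58.1 model held all 9 arrays (R 4.3.3; lmFit, eBayes, two-sided; 6 residual and 3.60 prior degrees of freedom), Benjamini-Hochberg adjusted over all probe sets. Members and lists were chosen with earlier results of these data known. Named with every array's value were genes called in any comparison, the largest and smallest difference per role, and 6 set genes (Mki67, Top2a, Cdk1, Aurkb, Cenpa, Foxm1); a further set gene, Ccnb1, was not measured. The other members are given by their difference. Of related lists, genes called and up to 2 with the largest difference were named; Mad2l1 in detail and Ccnd1 were added after their values were seen. Equal replicate numbers are not tied together by the labels: correlations of their deviations ranged from -0.294 to 0.169, and they were not taken as pairs. Tests were checked on simulated data. Python 3.11.15 (pandas 2.3.3) made the tables, matplotlib 3.10.9 the plots.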

Additional observations from a re-analysis of the deposited data

How the results depend on the processing

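The median differences of the 39 genes kept their direction against immature oviduct under all alternatives. They moved by less than 0.19, the SD of the array medians of these genes within groups. That SD comes from these same arrays, diestrus 3 among them. Leaving out 1 of 3 arrays can hardly move a group mean by more, so for those fits this does not measure steadiness. Counts called for estrus, diestrus and both stages against immature were 1, 6 and 8 with all arrays, beside 24, 282 and 122 calls in either direction over all features in that fit, given likewise below. They were 3, 11 and 15 with a low intensity filter (34 of the 39 genes kept; beside 29, 334 and 147), 2, 9 and 14 with median centring (beside 23, 262 and 145), and 0, 6 and 14 with cyclic loess (beside 5, 205 and 130). An intensity trend and robust prior gave 3, 7 and 11 (beside 28, 259 and 139). Probe sets with 1 symbol gave 1, 9 and 13 (beside 12, 277 and 100), and averaging the probe sets of a gene gave 2, 11 and 13 (beside 11, 302 and 108). Array weights gave 35, 34 and 35 (beside 1023, 1288 and 578), with a weight of 8.16 on estrus 3. Fits of only the arrays compared gave 3 and 1 for estrus and diestrus (beside 23 and 85). An adjusted p under 0.01 gave 0, 0 and 0. So did leaving out both arrays of high ovarian genes, added after seeing the data, where Ncapg reversed to 0.07 for diestrus minus immature. With the replicate block the counts were 0, 3 and 2 (beside 4, 121 and 44), but equal numbers were not shown to pair the pools. For diestrus minus estrus 0 were called, except 1 gene with array weights (beside 3331) and 1 without diestrus 3 (beside 105). Leaving out 1 array gave 0 to 19, 0 to 29, 0 to 1 and 0 to 31 calls for estrus, diestrus, diestrus minus estrus and both stages. Without a diestrus array the estrus differences stayed as they were, and only the shared estimate of spread and the adjustment changed. Other causes of these changes were not tested. Of the alternatives for single named genes, 1211 kept direction and side of the threshold, 131 passed newly, 129 no longer passed and 1 reversed. The 129 could only come from the 1, 6 and 8 calls with all arrays. Most of the 1211 were genes not called in either fit, so they do not measure how steady the calls were. The 16 genes below the array median on all arrays were not shown to be above background.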
